A study of Mus musculus with 25 samples.

Results

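The YAP-TEAD pathway is represented here by 10 of the 24015 genes of each expression table, chosen by symbol: Yap1, Wwtr1, Tead1, Tead3, Lats2, Amotl2, Ajuba, Ankrd1, Ctgf and Cyr61. Their RNA was measured by sequencing in 8 mouse basal cell carcinomas and in 9 libraries of ASZ001, a mouse basal cell carcinoma cell line. The tumours were labelled 4 resistant and 4 sensitive, and all came from C57BL6 mice with the alleles Ptch+/-, K14 Cre-ER and p53 fl/fl that had received an inhibitor of Smo by mouth. The keratin 14 promoter limits the inducible Cre to keratin 14-expressing epithelium, and no source used here states the age of the mice or the dose of the inhibitor. The ASZ001 cells, which the labels call resistant, were given CCG-1423 in 3 libraries, vismodegib in 3 and vehicle in 3, again without a stated dose or time. CCG-1423 is known as an inhibitor of signalling through MRTF and SRF, and vismodegib is a Smo inhibitor. ASZ001 is a single cell line, so its libraries do not sample several tumours. Values are normalized read counts (reads divided by 1 size factor per library), and the tables of tumours and cells were normalized separately, so levels are compared only within a table. Counts are not scaled by gene length, so levels are not compared between genes.

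YAP (Yap1) and TAZ (Wwtr1) are coactivators without a DNA-binding domain of their own, and they reach promoters and enhancers through the TEAD factors, of which Tead1 and Tead3 are listed here. The Hippo kinases, Lats2 among them, phosphorylate YAP and TAZ and hold them outside the nucleus. Amotl2 binds YAP at junctions and the cytoskeleton and is itself a YAP-TEAD target, and the LIM protein Ajuba binds and restrains LATS kinases. Ankrd1, a nuclear ankyrin-repeat protein, and the secreted matricellular proteins Ctgf (Ccn2) and Cyr61 (Ccn1) are widely used as readouts of YAP-TEAD activity. Ctgf and Cyr61 are also known targets of SRF and its actin-regulated coactivators MRTF. In skin, YAP is known for keeping basal epidermal cells proliferating. YAP and TAZ are controlled largely by phosphorylation and location, which RNA levels do not measure.

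Promoter sequences were found for 8 of the 10 genes in RefSeq (GRCm38.p6, 250 bases before to 50 after each annotated start), Cyr61 under its newer symbol Ccn1. The letters GGAATG, a core bound by TEAD factors, were searched on both strands, so that CATTCC marks the same motif on the other strand. At least 1 match was present in 8 of these 8 genes and in 10 of their 12 promoters, against 14.7% of all 32851 promoters and 16.6% of all 27025 genes in the same table. The genes had been picked as pathway members, so these shares are a description. One 30-base stretch per gene is shown, since a reader can see in it which strand the motif is on and what flanks it; capitals mark the motif.

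Yap1: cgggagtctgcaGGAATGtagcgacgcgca
Wwtr1: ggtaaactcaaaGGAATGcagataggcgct
Tead3: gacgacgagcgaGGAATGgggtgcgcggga
Lats2: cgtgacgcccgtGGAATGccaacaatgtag
Amotl2: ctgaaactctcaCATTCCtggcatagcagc
Ajuba: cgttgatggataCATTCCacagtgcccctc
Ankrd1: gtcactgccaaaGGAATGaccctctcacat
Cyr61: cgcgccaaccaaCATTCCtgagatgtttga

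These motifs began 141 bases before the start in Yap1, 136 in Wwtr1, 182 in Tead3, 65 in Amotl2, 186 in Ajuba, 210 in Ankrd1 and 103 in Cyr61. In Lats2 the motif lay just after the start. Ankrd1 held a second match 123 bases before its start, and Ajuba a second one at 164 bases. The second listed promoter of Tead3 held 3 matches, at 123 and 114 bases before its start and just after it. The AP-1 motif TGACTCA was found in 0 of the 12 promoters, against 5.20% of all promoters, and the CArG box of SRF in 0 of 12, against 1.63%. Those letters are absent from these windows only. The full promoters of 3 target genes with different patterns in the data are given below: Cyr61 (chr3:145649936-145650235, minus strand), Ankrd1 (chr19:36119795-36120094, minus strand) and Amotl2 (chr9:102717554-102717853, plus strand), each read 5′ to 3′ along the gene with the TEAD motif in capitals.

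Cyr61: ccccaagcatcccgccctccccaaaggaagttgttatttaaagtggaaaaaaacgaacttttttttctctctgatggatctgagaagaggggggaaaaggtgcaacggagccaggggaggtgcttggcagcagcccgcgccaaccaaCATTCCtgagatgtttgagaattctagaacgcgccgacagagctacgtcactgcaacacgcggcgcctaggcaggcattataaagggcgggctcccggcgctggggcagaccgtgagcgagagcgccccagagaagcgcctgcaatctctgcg
Ankrd1: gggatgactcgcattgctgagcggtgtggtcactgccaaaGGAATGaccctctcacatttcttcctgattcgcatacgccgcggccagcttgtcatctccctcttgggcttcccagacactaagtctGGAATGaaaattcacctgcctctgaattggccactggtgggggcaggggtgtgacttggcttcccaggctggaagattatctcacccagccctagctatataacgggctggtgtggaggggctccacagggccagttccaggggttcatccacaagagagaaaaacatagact
Amotl2: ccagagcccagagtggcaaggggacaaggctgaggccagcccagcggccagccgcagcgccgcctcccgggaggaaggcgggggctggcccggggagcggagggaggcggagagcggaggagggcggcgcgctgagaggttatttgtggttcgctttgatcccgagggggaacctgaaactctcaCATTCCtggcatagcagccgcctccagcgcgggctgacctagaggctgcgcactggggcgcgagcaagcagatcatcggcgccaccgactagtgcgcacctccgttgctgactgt

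Reads at genes numbered 17537094 to 20014426 in the resistant tumours and 8111252 to 14161398 in the sensitive ones. The CCG-1423 libraries held 32024887 to 41040633 reads, the vismodegib libraries 30455530 to 35561668 and the vehicle libraries 32192090 to 44017757. Sensitive tumour 4 stood with the resistant tumours on the first principal component (65.9% of the variance, score -66.0 against -65.4 to -48.3 in resistant tumours and 88.7 to 98.1 in sensitive tumours 1 to 3). It also lacked the Y-linked reads of sensitive tumours 1 to 3, as the resistant tumours did, so sex and group cannot be told apart without it. Its label is therefore in doubt; the label was kept, whether it is right was not tested, and results for the 10 genes are given with and without this tumour. Basal keratinocyte markers were all detected in tumours and cells (8 of 8), and the Hedgehog targets Gli1, Ptch1 and Hhip in the tumours, but Hhip had 0 reads in the vehicle cells. Trp53, whose floxed alleles the mice carried, had 346 to 698 normalized counts over the 8 tumours, and gene-level counts do not show whether the floxed exons were lost. The labels do not say whether libraries of a group came from separate animals or cultures, and the p-values therefore reflect only how far these particular libraries scatter, which can be technical scatter.

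The comparison of resistant with sensitive tumours asked whether the pathway genes marked the resistant state. The secreted targets Ctgf and Cyr61 and the nuclear target Ankrd1 had their lowest values in sensitive tumours 1 to 3, while sensitive tumour 4 lay within the range of the resistant tumours for all of these genes. The pathway's own components differed less, with Tead1 the gene whose groups did not overlap. None of the 10 genes passed the threshold (adjusted p under 0.05) in the fit of 8 tumours, where 0.113% of 15076 genes passed (0.0332% higher and 0.0796% lower). Without sensitive tumour 4, 5 of the 10 were higher, where 40.0% of all genes passed (20.6% higher and 19.4% lower). That tumour was singled out by its expression in these same data, so leaving it out favours separation of the groups. The fit without it also sets tumours lacking Y-linked reads against sensitive tumours 1 to 3, which have them. Its p-values, here and below, are therefore a description and no independent support. With 8 tumours 8 of the 10 log2 fold changes were positive, with a median of 0.52 beside 0.03 for all genes tested. The share of all genes with a positive change was not computed. With a term for sex in the fit the median of the 10 was 0.24. The 10 genes were chosen with earlier results of these data known, so these medians are a description. By edgeR 0 of the 10 passed too (0 genes in all). An unadjusted p under 0.05 was reached by 3789 genes in limma and 3513 in edgeR. In these bulk tumours fewer cells of a type and less RNA per cell cannot be told apart.

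Among the coactivators, Yap1 had 2234, 2255, 2076 and 2584 normalized counts in resistant tumours 1 to 4, against 2234, 2020.4, 4789 and 2045 in sensitive tumours 1 to 4. All values lay close together apart from sensitive tumour 3, which was far above every other tumour. The log2 fold change of Yap1 was -0.18 ± 0.28 (SE, adjusted p = 0.687), against -0.29 without sensitive tumour 4 (adjusted p = 0.435) and 0.12 without sensitive tumour 3. Wwtr1 had 3545, 2964, 3115 and 2213 normalized counts in resistant tumours, against 2024, 2159, 2524 and 2202 in sensitive tumours. Resistant tumours 1 to 3 were above every sensitive tumour and resistant tumour 4 was not, and the log2 fold change of 0.39 ± 0.17 did not pass (adjusted p = 0.197, and 0.114 without sensitive tumour 4).

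Of the DNA-binding partners, Tead1 had 6225, 3976, 4609 and 5634 normalized counts in resistant tumours, against 3512, 3435, 3181 and 3667 in sensitive tumours. Every resistant tumour was above every sensitive one, a separation that 7.90% of all tested genes showed. The log2 fold change of Tead1 was 0.55 ± 0.17 (SE) with an adjusted p of 0.144 over 8 tumours, and it was 0.58 with an adjusted p of 0.0283 without sensitive tumour 4. DESeq2 called it in the 8 tumours (adjusted p = 0.0350), but DESeq2 called 1630 of 15076 genes there, against 17 by limma and 0 by edgeR. Tead3 had 236 to 270.3 normalized counts in resistant and 205 to 296 in sensitive tumours, with overlapping groups and a log2 fold change of -0.03 ± 0.18 (-0.14 without sensitive tumour 4).

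The upstream regulators showed wide ranges. Lats2 had 1689, 1481, 1218 and 2129 normalized counts in resistant tumours, against 1469.9, 1407, 1355 and 1417 in sensitive tumours (difference of 0.18 ± 0.18 on the log2 scale, adjusted p = 0.530, and again 0.18 without sensitive tumour 4). The resistant tumours spanned a wider range, above and below the sensitive ones. Amotl2 had 523, 333, 293 and 517 normalized counts in resistant tumours, against 368, 305, 189 and 311 in sensitive tumours, with overlapping groups (0.50 ± 0.28, adjusted p = 0.277, and 0.54 without sensitive tumour 4, adjusted p = 0.176). Ajuba had 1411, 839, 824 and 1171 in resistant tumours, against 612, 558, 611 and 1096 in sensitive tumours. Sensitive tumour 4 alone among the sensitive tumours reached the resistant range of Ajuba, so its log2 fold change of 0.58 ± 0.27 (adjusted p = 0.211) became 0.80 with an adjusted p of 0.0160 when that tumour was left out.

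Ankrd1 was a rare transcript, with 64, 18, 42 and 52 reads in resistant tumours 1 to 4, against 3, 1, 0 and 47 reads in sensitive tumours 1 to 4. As normalized counts these were 56.0, 13.3, 33.3 and 36.3 in resistant tumours, against 3.45, 1.41, 0 and 47.6 in sensitive tumours, and 3 reads correspond to 3.45 to 4.97 normalized counts in sensitive tumours 1 to 3. Those 3 tumours were thus at or under the floor of detection and sensitive tumour 4 was among the resistant values. The fitted difference was 2.74 ± 1.09 on the log2(count + 1) scale (adjusted p = 0.174) and 3.10 with a pseudocount of 0.5, but 1.31 by edgeR and 1.38 by DESeq2, so its size depends on the method. Without sensitive tumour 4 Ankrd1 passed (adjusted p = 0.00239). Ankrd1 is also abundant in striated muscle, and the summed skeletal muscle markers (8 genes, of which 6 averaged at least 10 in resistant tumours and 1 in sensitive ones) were 58.6 to 929 normalized counts in resistant tumours, 103 in sensitive tumour 4 and 11.3 to 20.7 in sensitive tumours 1 to 3. Pvalb was the only one of these markers at 0 in all sensitive tumours, and the part of muscle RNA in the Ankrd1 values was not tested.

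Ctgf had 3302, 1919.8, 4551 and 2397 normalized counts in resistant tumours, against 1034, 929.7, 482 and 2059 in sensitive tumours. Sensitive tumour 4 exceeded resistant tumour 2, and the other sensitive tumours were all below the resistant range. The log2 fold change of Ctgf was 1.54 ± 0.43 (SE, adjusted p = 0.139) over 8 tumours and 1.90 ± 0.35 (adjusted p = 0.00350) without sensitive tumour 4. DESeq2 called Ctgf in the 8 tumours (adjusted p = 0.0251), among 1630 of 15076 genes that it called. Cyr61 had 2920.4, 1116, 1497 and 1491 normalized counts in resistant tumours, against 422, 309, 268 and 1497 in sensitive tumours. Here too sensitive tumour 4 stood in the resistant range, and the log2 fold change was 1.78 ± 0.53 (adjusted p = 0.141) with it and 2.32 ± 0.31 (adjusted p = 0.000944) without it.

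With a term for sex in the fit, which sets resistant tumours in effect against sensitive tumour 4, the log2 fold changes were 0.49 for Ctgf, 0.13 for Cyr61, -0.61 for Ankrd1 and -0.08 for Ajuba, and none passed. Markers of other cell types moved with the tumours in part. Differentiated keratinocyte markers (7 in the table) summed to 380 to 921 normalized counts in resistant tumours, 1196 in sensitive tumour 4 and 5519 to 9165 in sensitive tumours 1 to 3. Hedgehog targets (4 of 4) summed to 5155 to 11163 in resistant tumours, 8328 in sensitive tumour 4 and 954 to 2103 in sensitive tumours 1 to 3. Macrophage and leukocyte markers (7 in the table) summed to 5360 to 21734 in resistant tumours, 15008 in sensitive tumour 4 and 4208 to 9623 in sensitive tumours 1 to 3. Summed basal keratinocyte markers (8 of 8 averaging at least 10) were 37175 to 97003 normalized counts in resistant tumours, 88983 in sensitive tumour 4 and 158312 to 231001 in sensitive tumours 1 to 3. Neutrophil markers (4 of 4) summed to 5716 to 8737 in resistant tumours, 15784 in sensitive tumour 4 and 626 to 1037 in sensitive tumours 1 to 3. Summed endothelial markers (8 of 8 averaging at least 10) were 2675 to 4943 normalized counts in resistant tumours, 2972 in sensitive tumour 4 and 1816 to 2032 in sensitive tumours 1 to 3. Smooth muscle and pericyte markers (8 of 8) summed to 10285 to 18164 in resistant tumours, 18093 in sensitive tumour 4 and 7912 to 10353 in sensitive tumours 1 to 3. Fibroblast markers (8 of 8) summed to 80890.3 to 122948 in resistant and 68073 to 139638 in sensitive tumours, so they overlapped. The sums of macrophage and leukocyte markers and of smooth muscle and pericyte markers in resistant tumours also overlapped those of sensitive tumours 1 to 3. None of these markers was at 0 throughout a group, and their part in the Ctgf and Cyr61 values was not tested.

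**Figure D1:**
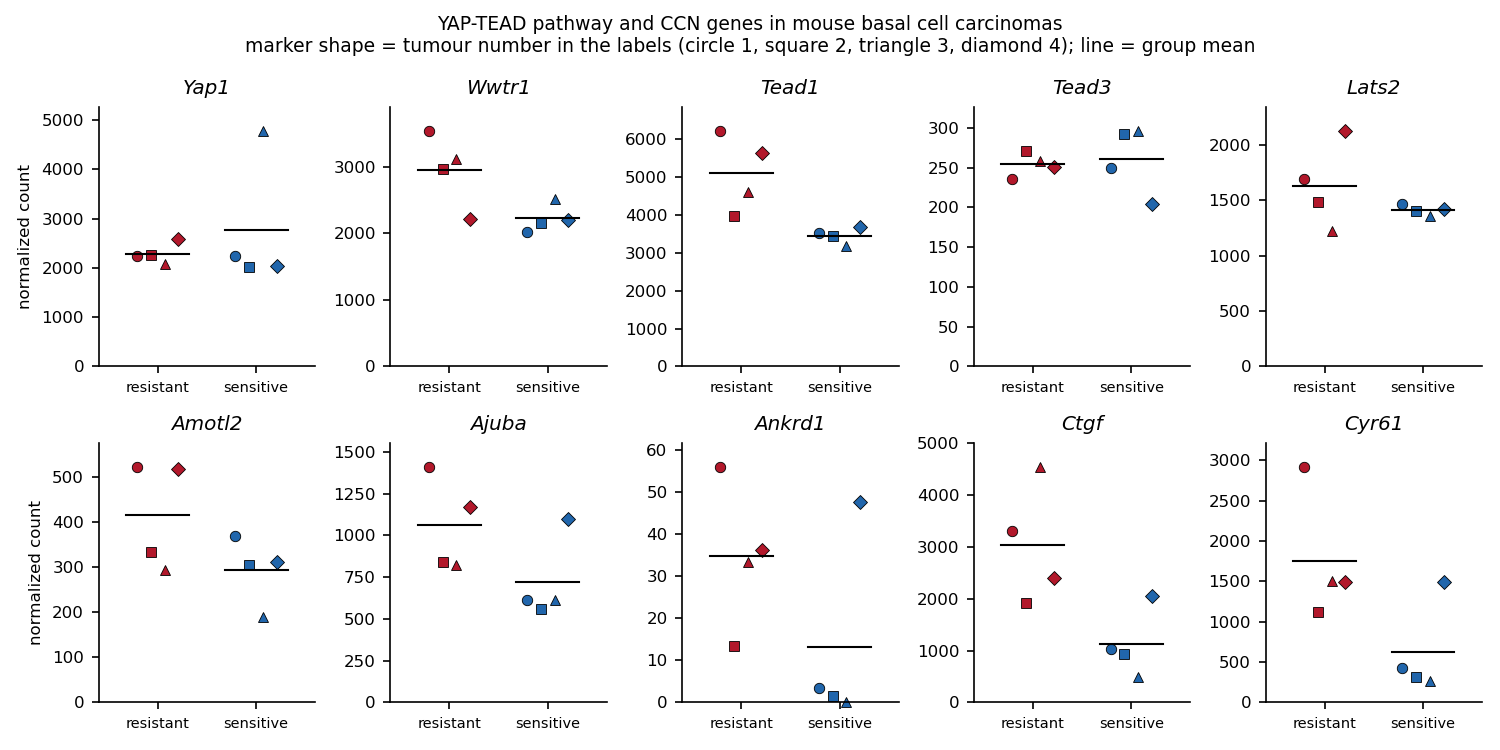
Normalized counts of the 10 genes (vertical axes, linear, from 0) in each resistant and sensitive tumour, with marker shapes for tumour numbers and a line for the group mean. Sensitive tumour 3 stands apart for Yap1 (4789), and sensitive tumour 4 (diamond) lies among the resistant tumours for Ajuba, Ankrd1, Ctgf and Cyr61.

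The high Yap1 value of sensitive tumour 3 was followed along the chromosome, a step chosen after the value was seen. Neighbours of Yap1 on chromosome 9 with a mean of at least 50 normalized counts were taken in order from RefSeq, 5 on each side. Relative to the mean of sensitive tumours 1 and 2, sensitive tumour 3 had 2.25-fold the Yap1 count, 2.33-fold that of Birc2, an inhibitor of apoptosis, 2.56-fold that of Tmem123 and 1.59-fold that of Birc3, another inhibitor of apoptosis. On the other side it had 1.45-fold the count of Arhgap42 and 1.21-fold that of Maml2, a Notch coactivator. Phxr4, Mtmr2 and Cep57 were at 0.965-fold, 0.908-fold and 1.02-fold, Mmp8 at 1.09-fold and Mmp10 at 0.368-fold. Both Mmp8 (12.7 to 69.1 normalized counts) and Mmp10 (9.94 to 35.7) were low in sensitive tumours 1 to 3, so their ratios are uncertain. In the other tumours Mmp8 had at least 314 and Mmp10 at least 316. Besides Yap1, from which the step started, sensitive tumour 3 was the highest of the 8 tumours for Tmem123, Birc2, Arhgap42 and Maml2. For Arhgap42 sensitive tumours 1 to 3 (2612, 2198 and 3494) were all above every other tumour (1074 to 1699). For Maml2 it had 1875, against 1602 in resistant tumour 3, the next highest. The share of all genes with sensitive tumour 3 as the highest was not computed. A ratio at least as high as that of Yap1 was seen for 200 of 12804 genes, or 1.56%. Exome data exist for tumours of the study and were not analysed here, so DNA copy number at Yap1 was not tested.

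**Figure D2:**
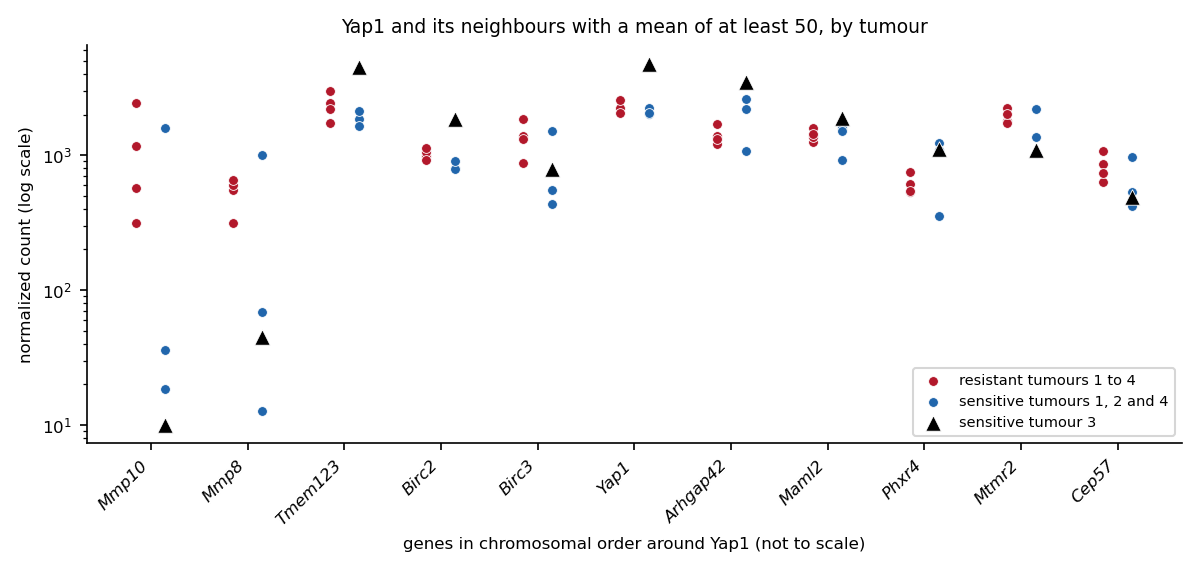
Normalized counts (log axis) of Yap1 and 5 neighbouring genes on each side in chromosomal order, not to scale, with resistant tumours in red, sensitive tumours 1, 2 and 4 in blue and sensitive tumour 3 as a black triangle. The triangle lies above every other tumour for Tmem123 (4509), Birc2 (1849.8), Yap1 (4789), Arhgap42 (3494) and Maml2 (1875).

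Wider pathway lists were read in the same fits, by counts of genes passing. With all 8 tumours none of the listed genes passed. The calls without sensitive tumour 4 carry the limits given above, as that tumour was singled out by its expression and sex follows group without it. Without sensitive tumour 4, 6 of 18 Hippo kinases and upstream regulators were higher in resistant tumours and none lower, with a median log2 fold change of 0.16, beside 0.02 for all genes. In that fit 40.0% of all genes passed, 20.6% higher and 19.4% lower, which is also the background of the other lists below. These included Frmd6, a FERM-domain activator of the pathway, at 2603 ± 244 in resistant tumours and 1293 ± 20.8 in sensitive tumours 1 to 3 (SD, n = 4 and 3; adjusted p = 0.000682), and Sav1, the scaffold of the MST kinases, at 1154 ± 165 in resistant tumours and 527 ± 55.2 in sensitive tumours 1 to 3 (log2 fold change 1.12 ± 0.16). The tumour suppressor Nf2 (0.78 ± 0.16) and the giant cadherin Fat1 (1.05 ± 0.19) were higher as well. Sensitive tumour 4 had 2314 normalized counts of Frmd6, 1073 of Sav1, 2325 of Nf2 and 34395 of Fat1, all within the range of the resistant tumours, and none of these genes passed with it in the fit.

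Among YAP and TAZ binding and scaffold proteins, 1 of 9 was higher and 3 were lower without sensitive tumour 4, a share near the 40.0% of all genes. Ptpn14, a phosphatase that binds YAP and is also on the list of targets, had 1927, 1277, 1730.5 and 3211 normalized counts in resistant tumours, against 7809, 8508, 9597 and 2375 in sensitive tumours 1 to 4. Sensitive tumours 1 to 3 were far above all others, and Ptpn14 fell in resistant tumours without sensitive tumour 4 (-2.16 ± 0.28, adjusted p = 0.000772) but did not pass with it (-1.70 ± 0.46, adjusted p = 0.139). The LIM protein Limd1 was lower (-0.69 ± 0.17) and Amot, the angiomotin, higher (1.45 ± 0.45), both without sensitive tumour 4.

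Of the other TEAD factors and their Vgll cofactors, 4 of 6 were tested, and 2 were higher and 1 lower without sensitive tumour 4. Vgll4, which competes with YAP for TEAD, had 281, 301, 337 and 292 normalized counts in resistant tumours, against 706, 722, 1038 and 295 in sensitive tumours. Sensitive tumour 4 again took a resistant value, and Vgll4 fell by 1.42 ± 0.18 on the log2 scale without it. Vgll3, another TEAD cofactor, was higher (1.46 ± 0.33), as was Tead4 (1.27 ± 0.36). Of 17 other target genes, taken from a target list drawn up in human cancers, 6 were higher and 2 lower without sensitive tumour 4 (median 0.39), where 40.0% of all genes passed. Igfbp3, a binding protein of insulin-like growth factors, had 6676, 7227, 6388 and 5094 in resistant tumours, against 785, 819, 851 and 4721 in sensitive tumours (2.94 ± 0.15 without sensitive tumour 4). Dock5, a guanine nucleotide exchange factor, was higher (1.59 ± 0.26) and Tgfb2, a transforming growth factor, lower (-1.47 ± 0.23).

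The other CCN genes followed Ctgf and Cyr61 in part. Of 4 tested, 2 were higher in resistant tumours without sensitive tumour 4 and 2 did not pass. Wisp1 (Ccn4) had 1759, 1652, 1391 and 1166 normalized counts in resistant tumours, against 322, 201, 137 and 1817 in sensitive tumours. Nov (Ccn3) had 230.0, 172, 142 and 207 in resistant tumours, against 80.6, 45.2, 13.2 and 4.05 in sensitive tumours. For Wisp1 sensitive tumour 4 was the highest of all tumours, whereas for Nov it was the lowest. Its Nov value lay near the floor, as 3 reads correspond to 3.04 normalized counts in that tumour. Nov thus separated the labelled groups with all 8 tumours (3.02 ± 0.77, adjusted p = 0.138), as 7.90% of all tested genes did. Without sensitive tumour 4 the log2 fold change of Nov by limma was 2.30 ± 0.53 (adjusted p = 0.00938).

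In ASZ001 cells the first question was what CCG-1423, as an inhibitor of MRTF and SRF signalling, did to these genes relative to vehicle. The targets went different ways. Ctgf fell to 33.9% of its vehicle level, Cyr61 rose slightly and Amotl2 rose, while TAZ (Wwtr1) and Tead1 rose and Yap1 fell. Ankrd1 had 0 to 2 reads in every cell library, at or under the floor of 3 reads, and was not tested. Of the 9 genes tested 5 were higher, 3 lower and 1 did not pass, on a background in which 85.3% of 12775 genes passed, 42.8% higher and 42.6% lower. The count of genes that passed is therefore near that of all genes, and the size of each change carries the description. The median log2 fold change of the 9 genes was 0.18, beside 0.00 for all genes.

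Ctgf had 478, 617 and 681 normalized counts with CCG-1423, against 1705, 1773 and 1768 with vehicle. Its log2 fold change was -1.58 ± 0.10 (SE, adjusted p = 2.68e-10). Cyr61 had 1077, 1385 and 1284 with CCG-1423, against 1106, 1047 and 1126 with vehicle. CCG-1423 library 1 lay among the vehicle values of Cyr61 and the other CCG-1423 libraries above them. The log2 fold change of Cyr61, 0.18 ± 0.08, passed narrowly (adjusted p = 0.0333). That call was lost with quantile normalization (adjusted p = 0.0980), without vehicle library 1 or 2 (0.0556 and 0.117) and without CCG-1423 library 2 or 3 (0.187 and 0.0971).

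Amotl2 had 5061, 6137 and 5614 normalized counts with CCG-1423, against 1775, 1748 and 1798 with vehicle. All CCG-1423 libraries were far above the vehicle ones, 3.16-fold in the means (log2 fold change 1.65 ± 0.06, adjusted p = 3.13e-13). Among all tested genes this change was at the 95.2nd percentile from below. Tead1 had 2281, 2514 and 2484 with CCG-1423, against 639, 591 and 629 with vehicle, a 3.92-fold difference of means (1.97 ± 0.06, adjusted p = 6.78e-14). Of the 9 genes tested Tead1 showed the largest fitted change with CCG-1423. Tead3 went the other way, with 1433, 1612 and 1497 with CCG-1423, against 1743, 1743 and 1797 with vehicle (-0.22 ± 0.04, adjusted p = 0.000181).

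The coactivators also parted. Wwtr1 had 6634, 6721 and 7146 normalized counts with CCG-1423, against 3479.6, 3418 and 3433 with vehicle (0.99 ± 0.03, adjusted p = 1.37e-13), a 1.98-fold difference of means. Yap1 had 6276, 6147 and 6251 with CCG-1423, against 8301, 7986 and 7998 with vehicle (-0.38 ± 0.03, adjusted p = 2.37e-09). Neither gene's groups overlapped, but those of Ajuba, which did not pass, did not overlap either. The share of all genes without overlap was not computed for the cells. Lats2 rose slightly, with 1001, 1025 and 987 with CCG-1423, against 849, 833 and 772 with vehicle (0.30 ± 0.05, adjusted p = 6.0e-05). Ajuba had 8139.6, 8151.5 and 8072 with CCG-1423, against 8559, 8299 and 8476 with vehicle, a difference of -0.06 ± 0.03 that did not pass (adjusted p = 0.0595), though it did by edgeR (0.0410) and without CCG-1423 library 1 (0.0392).

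Of the wider lists with CCG-1423, 8 of 17 tested Hippo kinases and upstream regulators were higher and 5 lower, where 85.3% of all genes passed. Taok2, a kinase upstream of the pathway, fell by 1.55 ± 0.03 on the log2 scale, Nf2 by 1.06 ± 0.04 and Mob1b, the LATS cofactor, by 0.99 ± 0.03, and Map4k4 rose (0.47 ± 0.03). Of the 9 binding and scaffold proteins 7 were lower and 1 higher (median -0.36). Ptpn14 was at 14665 ± 560 with CCG-1423 and 41660 ± 498 with vehicle (SD, n = 3 each; -1.51 ± 0.03), and the 14-3-3 proteins Ywhaq (-1.11 ± 0.03) and Ywhaz (-0.66 ± 0.04) and the catenin Ctnna1 (-0.37 ± 0.03) fell too. Among 4 tested TEAD and Vgll genes Tead2 (0.47 ± 0.04) and Vgll3 (0.32 ± 0.04) were higher, and Vgll4 (-0.89 ± 0.03) and Tead4 (-0.13 ± 0.04) lower.

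Of 16 tested other target genes 10 were higher and 6 lower with CCG-1423 (median 0.27), on the same background of 85.3% of all genes (42.8% higher and 42.6% lower). Gadd45a, a stress and growth-arrest gene, was at 5815 ± 425 with CCG-1423 and 1012 ± 10.3 with vehicle (2.52 ± 0.05). Rbms3, an RNA-binding protein, fell by 1.46 ± 0.06 on the log2 scale and Axl, a receptor tyrosine kinase, by 0.61 ± 0.03. The CCN genes did not move together. Wisp1 rose to 3914 ± 222 with CCG-1423, against 1045 ± 26.1 with vehicle (1.90 ± 0.05), Nov fell to 905 ± 78.3 with CCG-1423, against 1413 ± 56.5 with vehicle (-0.65 ± 0.06), and Wisp2, a low transcript, was at 20.9 ± 5.17 with CCG-1423 and 9.86 ± 2.89 with vehicle (1.02 ± 0.37, adjusted p = 0.0174).

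Cell identity markers moved with CCG-1423 as well. Summed basal keratinocyte markers (8 of 8) were 304619 to 317677 normalized counts with CCG-1423, against 1370426 to 1400479 with vehicle. Differentiated keratinocyte markers (7 listed genes in the table) summed to 5129 to 5637 with CCG-1423 and 17409 to 19073 with vehicle, with Krt2 at 0 in both. Summed fibroblast markers were low in both, at 97.8 to 126 with CCG-1423 and 176 to 205 with vehicle, with Lum and Thy1 at 0. Of these 8 markers 3 averaged at least 10 with CCG-1423 and 4 with vehicle. The part of these shifts in the pathway values was not tested.

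**Figure D3:**
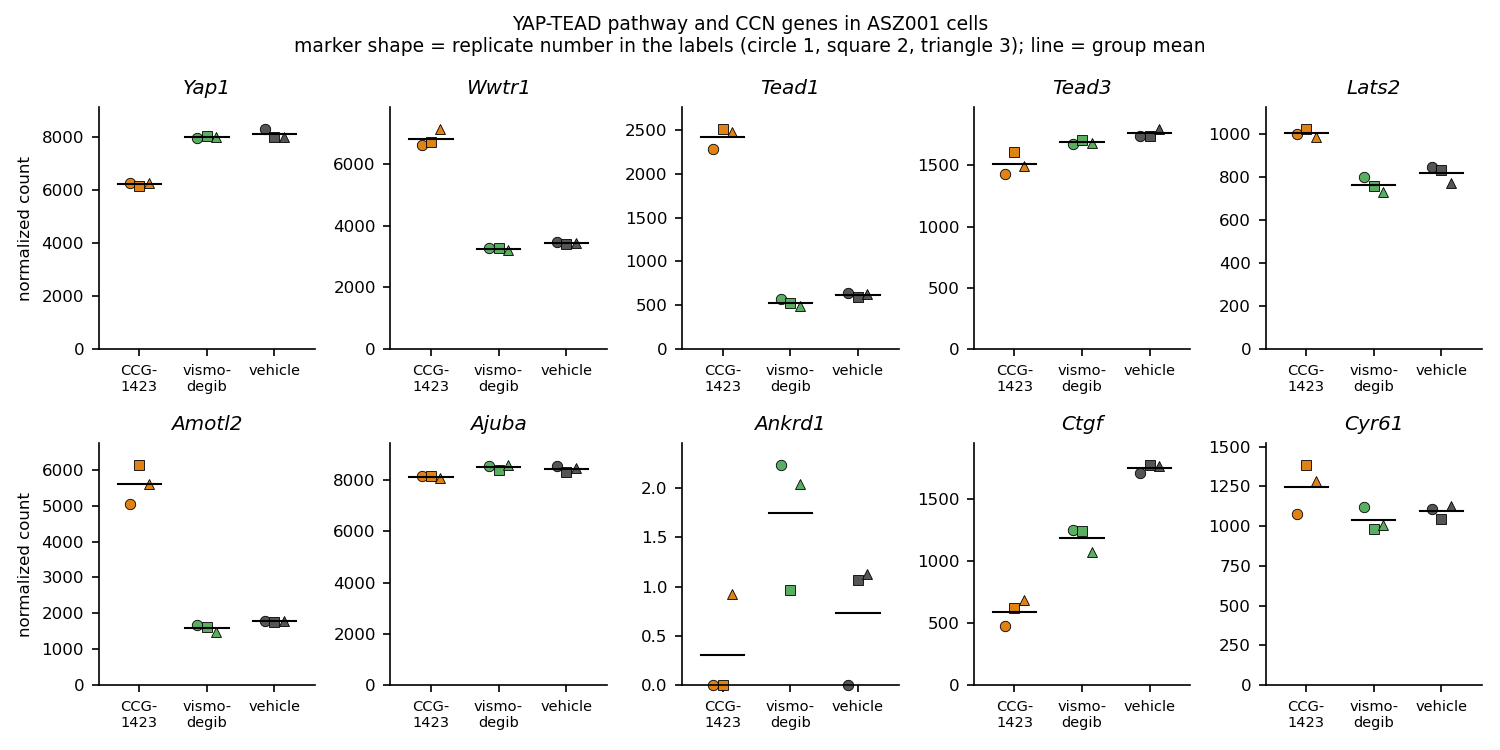
Normalized counts of the 10 genes (vertical axes, linear, from 0) in each ASZ001 library with CCG-1423, vismodegib or vehicle, with a line for the group mean. With CCG-1423, Wwtr1, Tead1 and Amotl2 lie far above both other groups and Ctgf and Yap1 below them; Ctgf with vismodegib (1071 to 1246) lies between the other groups.

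Vismodegib was compared with vehicle in the same cells. Here Ctgf fell in all libraries, Tead1 fell narrowly and the other genes did not pass. Of 9 genes tested 2 were lower and 7 did not pass, where 5.50% of 12775 genes passed (1.58% higher and 3.92% lower). The median log2 fold change was -0.08, beside 0.01 for all genes.

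Ctgf had 1246, 1243 and 1071 normalized counts with vismodegib, against 1705, 1773 and 1768 with vehicle. The groups were well apart, and the mean with vismodegib was 67.9% of the vehicle mean (-0.56 ± 0.10, adjusted p = 0.00225). Of all tested genes 1.76% had a lower fitted change. Cyr61 had 1123, 979 and 1007 with vismodegib, against 1106, 1047 and 1126 with vehicle, with overlapping groups and a log2 fold change of -0.08 ± 0.08 (adjusted p = 0.643). Tead1 had 575, 522 and 490.5 with vismodegib, against 639, 591 and 629 with vehicle (-0.23 ± 0.06, adjusted p = 0.0385). The Tead1 call was lost with the replicate number as a block (adjusted p = 0.0595), with total-read scaling (0.0990) and without vehicle library 1, 2 or 3 or vismodegib library 2 or 3 (0.0573 to 0.193).

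Wwtr1 had 3276, 3275 and 3208 normalized counts with vismodegib, against 3479.6, 3418 and 3433 with vehicle, and Amotl2 had 1679.8, 1632 and 1489.9 with vismodegib, against 1775, 1748 and 1798 with vehicle. Both were below vehicle in every library, and neither passed (-0.08 ± 0.03, adjusted p = 0.176, and -0.15 ± 0.06, adjusted p = 0.170). In a fit of the vismodegib and vehicle libraries alone these 2 genes did pass (adjusted p = 0.0394 and 0.0149). More genes passed there in all, 1721 of 12440, against 703 of 12775 in the main fit. Yap1 ranged from 7956 to 8053 with vismodegib and from 7986 to 8301 with vehicle (-0.02 ± 0.03), and Ajuba from 8389 to 8585 with vismodegib and from 8299 to 8559 with vehicle (0.01 ± 0.03). Tead3 (-0.06 ± 0.04) and Lats2 (-0.10 ± 0.05) did not pass. Tead3 too was below vehicle in every library (1674 to 1709 with vismodegib, against 1743 to 1797 with vehicle). The share of all genes with such a separation was not computed for the cells. The ribosomal precursor Rn45s took 1.39% to 1.58% of gene reads with vismodegib, against 5.81% to 6.70% with vehicle and 6.62% to 10.4% with CCG-1423. Scaled to total reads, 90.5% of the genes passing with vismodegib were higher, against 28.7% with the authors' size factors, and the Yap1, Tead3 and Cyr61 values changed sign to 0.07, 0.02 and 0.0032. With that scaling Ajuba passed as higher (0.09, adjusted p = 0.0352).

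The wider lists with vismodegib stand on a background of 5.50% of all genes passing, 1.58% higher and 3.92% lower. Of 17 Hippo kinases and upstream regulators 1 was lower, Taok1 (-0.27 ± 0.04), and of 9 binding and scaffold proteins 1, Ywhaz (-0.16 ± 0.04). Vgll3 was lower (-0.15 ± 0.04) among 4 TEAD and Vgll genes. Of 16 other target genes Igfbp3 was higher (0.22 ± 0.04) and Axl (-0.16 ± 0.03), Rbms3 (-0.21 ± 0.06) and Nt5e, an ectonucleotidase (-0.16 ± 0.05), were lower. None of 3 other CCN genes passed, with Wisp1 at 1088 ± 56.6 with vismodegib and 1045 ± 26.1 with vehicle, and Nov at 1381 ± 81.5 with vismodegib and 1413 ± 56.5 with vehicle.

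Set against vismodegib, CCG-1423 gave 5 higher and 4 lower genes of 9 tested, where 84.8% of all genes passed (42.4% in each direction). Tead1 was 4.58-fold higher in the means with CCG-1423 than with vismodegib (2.20 ± 0.06), Amotl2 3.50-fold (1.80 ± 0.06) and Wwtr1 2.10-fold (1.07 ± 0.03). Ctgf was at 592 ± 104 with CCG-1423 and 1187 ± 100.3 with vismodegib (-1.01 ± 0.10, adjusted p = 6.43e-08). Cyr61 was at 1249 ± 157 with CCG-1423 and 1036 ± 76.2 with vismodegib, with ranges that overlapped (0.26 ± 0.08, adjusted p = 0.00447). Yap1 (-0.36 ± 0.03) and Tead3 (-0.16 ± 0.04) were lower and Lats2 higher (0.40 ± 0.05). Ajuba was lower by a small amount (-0.07 ± 0.03, adjusted p = 0.0309), a call that 5 alternatives removed. Both comparisons with vehicle share the vehicle libraries, and both compounds' doses and times are unknown, so the sizes describe these treatments only.

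**Figure D4:**
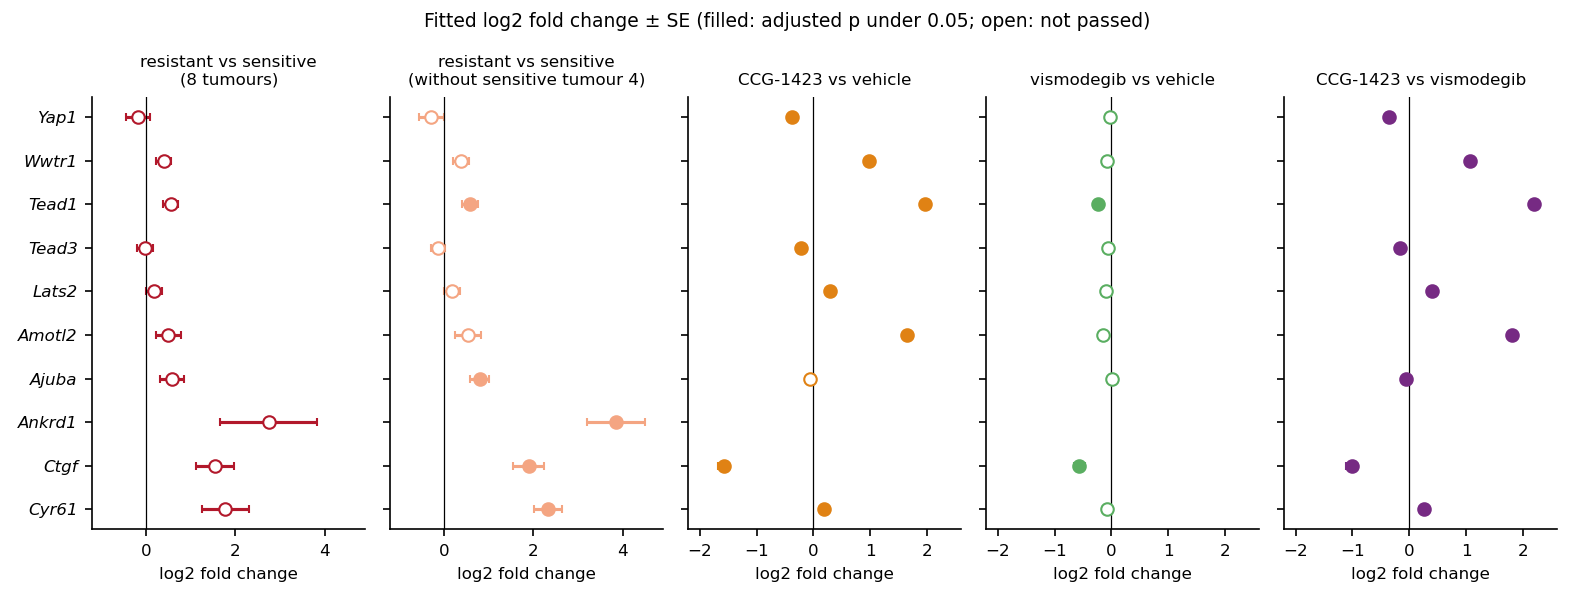
Fitted log2 fold changes (horizontal axes) of the 10 genes with their SE, which is mostly smaller than the marker in the cell comparisons, filled where the adjusted p was under 0.05. The tumour panels differ in that 5 genes are filled without sensitive tumour 4 and none with it; Ctgf is to the right in tumours (1.54 and 1.90) and to the left with both compounds (-1.58 and -0.56), and Ankrd1, at 0 to 3 reads in several tumours, depends on the pseudocount.

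Ratios within a library do not depend on how libraries are scaled. The log2 ratio of Yap1 to Wwtr1 was -0.13 ± 0.06 with CCG-1423, 1.30 ± 0.02 with vismodegib and 1.23 ± 0.02 with vehicle (SD, n = 3 each). CCG-1423 differed from vehicle by -1.37 and vismodegib from vehicle by 0.07, and neither comparison overlapped (two-sided exact permutation p = 0.1 each, the smallest that 3 against 3 libraries allow). In resistant tumours the same ratio was -0.67, -0.39, -0.58 and 0.22, against 0.14, -0.10, 0.92 and -0.11 in sensitive tumours (difference -0.57, exact permutation p = 0.143). Resistant tumour 4 was above all sensitive tumours but sensitive tumour 3.

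The log2 ratio of Ctgf to Cyr61 was -1.08 ± 0.15 with CCG-1423, 0.19 ± 0.13 with vismodegib and 0.68 ± 0.07 with vehicle (SD, n = 3 each). The differences were -1.76 for CCG-1423 and -0.48 for vismodegib from vehicle and -1.28 between the compounds, each without overlap and each with an exact permutation p of 0.1, the smallest possible. In resistant tumours it was 0.18, 0.78, 1.60 and 0.68, against 1.29, 1.58, 0.84 and 0.46 in sensitive tumours, which overlapped (difference -0.23, exact permutation p = 0.571). Adjusted by Benjamini-Hochberg over these 8 comparisons, the exact permutation p was 0.133 for each of the 6 in cells and 0.163 and 0.571 for those in tumours.

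**Figure D5:**
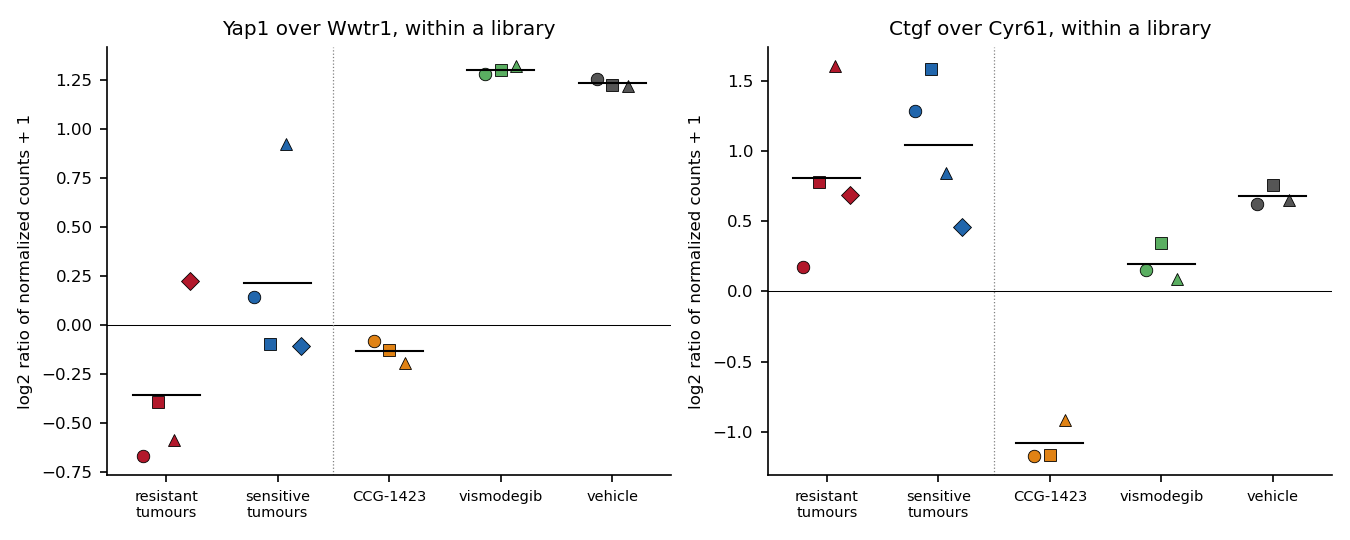
Log2 ratios of normalized counts + 1 within each library (vertical axes) for Yap1 over Wwtr1 and Ctgf over Cyr61, by group, with a line for the group mean; the dotted line parts tumours from cells, whose tables were normalized separately. CCG-1423 libraries lie at -0.19 to -0.08 and -1.17 to -0.91, below vismodegib and vehicle in both panels.

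Genes that followed Ctgf or Cyr61 most closely over the libraries were found by the root mean square difference of centred log2 values, among genes with a mean of at least 50. Over the 8 tumours the closest to Ctgf were Ncam1 (0.296), Fgd5 (0.312) and Lrig3 (0.317) of 12777 genes, and Cyr61 ranked 144th. The closest to Cyr61 were Cks2 (0.200), Slc2a1 (0.222) and Zfp367 (0.229), with Ctgf at rank 219. Slc2a1, the glucose transporter, had 8243, 3127, 5642 and 4656 normalized counts in resistant tumours, against 1448, 1183, 1000.2 and 6750.4 in sensitive tumours, so sensitive tumour 4 was again in the resistant range.

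Over the 9 cell libraries the closest to Ctgf among 11128 genes were Slc40a1 (0.142), the iron exporter, Pecam1 (0.143), an adhesion molecule of endothelial cells, and Tmem47 (0.147). Of 8 endothelial markers, Pecam1 among them, 3 averaged at least 10 with vehicle, and Kdr, Tie1 and Cldn5 had 0 reads there. Summed, the 8 markers were at 2516 to 2614 normalized counts with vehicle and 2692 to 2925 with CCG-1423. The sum thus did not fall with CCG-1423 as Pecam1 did. Slc40a1 had 223, 219.8 and 251 normalized counts with CCG-1423, 576, 587 and 494 with vismodegib, and 738, 808 and 779.8 with vehicle, the same order of groups as Ctgf. The closest to Cyr61 was Fhl2 (0.0485), a LIM protein, at 2689, 3407 and 3242 with CCG-1423, 2739.9, 2652 and 2638 with vismodegib, and 2797, 2707 and 2738 with vehicle. Lsm2 (0.0651) and Tti2 (0.0664) came next. In the cells Cyr61 ranked 6360th in likeness to Ctgf, and Ctgf 9900th in likeness to Cyr61.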

How the data were processed

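RNA was sequenced in 17 libraries, 8 of tumours and 9 of ASZ001 cells, and the 8 exome samples of the series were not analysed here. The signal values in both tables are normalized read counts per gene symbol that the authors deposited. Per the submitters' processing notes, TopHat, DESeq and the build mm9 were used, with no role given; no source used here names the gene counter, annotation or strandedness, so reads of overlapping genes on opposite strands could not be told apart. Whole reads were recovered in each library (100% of values whole within 0.01 read), and the floor of 3 reads, the most a gene at 0 could hide, stood at 2.09 to 4.97 normalized counts in tumours and 2.45 to 3.40 in cells, for counting error alone.

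Genes at 10 or more in 4 or more tumours, or 3 or more cell libraries, were fitted on the log2 scale (normalized count plus a pseudocount of 1) by limma 3.58.1 (R 4.3.3), moderating the variances along a trend. Two-sided p-values were adjusted over the whole table by the Benjamini-Hochberg method and passed under 0.05. One model covered the 8 tumours and another the 9 cell libraries together. Fold changes are on the log2(count + 1) scale, and those of low genes depend on the pseudocount. Ratios were tested by exact permutation (scipy 1.17.1). The alternatives were edgeR 4.0.16 (TMM, quasi-likelihood) and DESeq2 1.42.0 on recovered reads, a pseudocount of 0.5, no filter, total-read scaling, quantile normalization, a robust variance, the replicate number as a block, each library left out, only the compared cell groups and a sex term. The steps were tested on simulated data. Sequences and motifs were read from RefSeq tables.

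The 10 genes were fixed by symbol. Of 5 further pathway lists with 53 distinct genes, up to 4 genes of smallest p that passed were named per list and comparison, or 2 where none passed. The members and lists were chosen with earlier results of these data known. Libraries of a group differed by more than counting noise (chi-square per degree of freedom 12.8 to 173 in tumours and 1.81 to 38.9 in cells), so none was a repeat deposit. Libraries with the same replicate number did not deviate together (correlations -0.15 to 0.12 in tumours and -0.04 to 0.04 in cells), so the numbers were not taken as pairs. Results for some genes are not reported here.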

Additional observations from a re-analysis of the deposited data

Results flagged for a closer look

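Of 56 gene and group combinations of 4 tumours tested for a single value far from the rest, 13 stood out. Chance flags about 1 in 20 groups, but most of these genes had been named for a small p, some of them in the fit without sensitive tumour 4, so the count cannot be read against that share. Among the 10 pathway genes these were Yap1 in sensitive tumour 3 (4789 normalized counts, against 2020.4 to 2234 in the other sensitive tumours) and 3 genes in sensitive tumour 4: Ajuba (1096, against 558 to 612), Ankrd1 (47.6, against 0 to 3.45) and Cyr61 (1497, against 268 to 422).

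In the wider lists, where the choice of genes favoured those in which this tumour differs from the other sensitive ones, sensitive tumour 4 was the highest sensitive tumour by a wide gap for Frmd6 (2314, against 1272 to 1313), Igfbp3 (4721, against 785 to 851), Nf2 (2325, against 1197 to 1359), Sav1 (1073, against 493 to 590.5) and Wisp1 (1817, against 137 to 322). Resistant tumour 4 was the highest resistant tumour for Limd1 (991, against 744 to 753) and the lowest for Nf2 (1736, against 2366 to 2450.3) and Sav1 (908, against 1224 to 1254). Resistant tumour 1 was the highest for Tead4 (485, against 175 to 201).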

How the results depend on the processing

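No alternative reversed the sign of any of the 10 genes that had passed. In the tumours 17 genes passed by limma, 0 with a pseudocount of 0.5, edgeR, total-read scaling, quantile normalization, a robust variance or a sex term, and 1630 by DESeq2; leaving out 1 tumour gave 0 to 6184 genes, and 0 to 5 of the 10 pathway genes (all 5 without sensitive tumour 4), against 2 by DESeq2. With the replicate number as a block the count was 0 genes in tumours; with vismodegib it was 1 pathway gene in place of 2, and the block changed no other call of the 10 genes. With vismodegib 703 genes passed, 3229 with total-read scaling, 1721 with the compared groups alone (4 pathway genes) and 325 to 498 with 1 library left out (1 to 2 pathway genes). Signs that turned belonged to genes that had not passed: with the sex term Yap1 (0.16), Tead3 (0.31), Ajuba (-0.0838) and Ankrd1 (-0.61); with 1 tumour left out Yap1 (-0.29 to 0.12) and Tead3 (-0.14 to 0.041); with vismodegib and total-read scaling Yap1 (0.0657), Tead3 (0.0214) and Cyr61 (0.0032); and with 1 cell library left out Yap1 (-0.026 to 0.0019) and Ajuba (-0.003 to 0.0192). The cause was not tested, except that total-read scaling shifted the median of all genes by -0.11 in tumours and by 0.08 with vismodegib. Depth limits Ankrd1, with at most 64 reads in any library.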
